A study of Saccharomyces cerevisiae with 6 samples.

Results

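Aminoacyl-tRNA synthetases join each amino acid to its transfer RNA. Budding yeast (*Saccharomyces cerevisiae*) reads its nuclear genes with one set of these enzymes in the cytosol and the mitochondrial genome with another set inside mitochondria, and nuclear genes encode both sets. A few genes serve both compartments by making a longer and a shorter form of the protein. The genes described here were chosen by name: 21 for the cytosol (20 enzymes or enzyme subunits, with ARC1, the cofactor that binds methionyl- and glutamyl-tRNA synthetase) and 13 for mitochondria. The deposited table listed 33 of these 34 genes among 4909 genes in all, namely 21 cytosolic and 12 mitochondrial ones. SLM5, for the mitochondrial asparaginyl enzyme, was not listed.

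Direct RNA sequencing on nanopores reads native messenger RNA from its poly(A) tail, so a read gives both the gene and a tail length. The 6 libraries came from 3 strains with 2 libraries each, all Mat a. The wild type was BY4741 (leu2Δ0, his3Δ1, ura3Δ0, met15Δ0). The Dcp2 degron strain LMA5574 carried DCP2::polyG-3Flag-AID::kanMX, and the Ccr4/Pop2 degron strain LMA5601 carried AID-3Flag-CCR4 and CAF1::AID-KanMX6, where CAF1 is another name of POP2. Both degron strains also carried TAO3_E1493Q, an inserted A at -308 of RME1, and a construct at trp1-1 that joins TRP1, prURA3-Z3EVtf-tURA3 and Z3EV-TIR, which the wild type lacks; the strain backgrounds and the depletions therefore cannot be told apart. Every culture, wild type included, grew at 30 °C in YPD to an OD600 of 0.4 and received 100 µM IAA, an auxin, with 1 µM β-estradiol for 1 h. An AID tag marks a protein for destruction when auxin and the TIR protein are present. Dcp2 removes the 5′ cap of messenger RNA, and Ccr4 and Pop2 shorten its poly(A) tail.

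Library totals ran from 1067250 to 8450296 counts. In replicate 1 of the Ccr4/Pop2 degron all counts were multiples of 4, so they may not be numbers of separate reads. DCP2 itself stood at 50.9 and 54.7 CPM (counts brought to one library size) in the wild type, 22.8 and 22.7 with the Dcp2 degron, and 60.0 and 49.4 with the Ccr4/Pop2 degron. POP2 stood at 70.5 and 49.9, 51.9 and 34.4, and 43.7 and 30.8 CPM in the same order. CCR4 was not listed, and a degron acts on protein, so these RNA values do not check the depletion. As a check of the labelled mating type, all 6 a-cell markers (MFA1, MFA2, STE2, STE6, BAR1, AGA2) were listed, at 88 to 3248 counts. Of the 4 alpha-cell markers only SAG1 was listed, at 7 to 37 counts. With the replicate block described later, all 6 a-cell markers were lower with the Dcp2 degron than in the wild type and 4 were higher with the Ccr4/Pop2 degron. Of all genes, 19.7% were lower and 14.2% higher in those comparisons. SAG1 went the other way, called higher with the Dcp2 degron and lower with the Ccr4/Pop2 degron (blocked log2 changes of 0.97 and -1.57).

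Nuclear messenger RNAs for mitochondrial proteins are known in yeast for elements bound by Puf3, an RNA-binding protein that recruits the Ccr4-Not deadenylase complex. The core of that element, written here as DNA, is TGTANATA. It was searched on the sense strand within 200 nucleotides (nt) after the stop codon in the RefSeq R64 genome, the build called sacCer3 in the submitters' processing notes. All 12 mitochondrial genes held it (100%), against 4 of 21 cytosolic genes (19.0%) and 15.6% of the 4908 listed genes with a position in R64. The shares within 100 nt were 100%, 14.3% and 11.5%. The 12 mitochondrial genes held 15 matches, 12 of them TGTAAATA and 3 TGTATATA, between 16 and 119 nt after the stop codon. The 4 cytosolic matches were all TGTATATA.

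The matches shown are those of 4 mitochondrial genes called higher in a comparison described later (MSY1, MSD1, DIA4 and MSW1), of MSK1, which holds a pair of them, and of ISM1, whose core is TGTATATA, followed by 2 of the 4 cytosolic ones. Capitals mark the 8 bases of the core, with 10 bases on either side, 5′ to 3′ on the gene's strand. A match is a description of these letters and not a shown binding site.
MSY1 (mitochondrial tyrosyl enzyme), chrXVI:366498-366525, + strand, 78 nt after the stop codon: tgcactgactTGTAAATAagattataaa
MSD1 (mitochondrial aspartyl enzyme), chrXVI:357731-357758, + strand, 65 nt: aggtttttctTGTAAATAttatacctat
DIA4 (mitochondrial seryl enzyme), chrVIII:129126-129153, + strand, 16 nt: aagaaaatctTGTAAATAtgtaatctta
MSW1 (mitochondrial tryptophanyl enzyme), chrIV:1005166-1005193, + strand, 33 nt: gcaaacgcaaTGTAAATAataatacagt
MSK1 (mitochondrial lysyl enzyme), first match, chrXIV:490132-490159, + strand, 26 nt: ccaatgctttTGTAAATAaatcagacat
MSK1, second match, chrXIV:490154-490181, + strand, 48 nt: agacatatacTGTAAATAattagaatgg
ISM1 (mitochondrial isoleucyl enzyme), chrXVI:475958-475985, - strand, 18 nt: gtacctttccTGTATATAaagaatgcca
GUS1 (cytosolic glutamyl enzyme), chrVII:41155-41182, + strand, 16 nt: acataagtaaTGTATATAcatatttatg
GLN4 (cytosolic glutaminyl enzyme), chrXV:651742-651769, + strand, 20 nt: tgtgcatataTGTATATAtttatatata

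In the wild type the cytosolic genes were the abundant class. Levels are given as CPM after TMM scaling, a correction for differences in library composition. The median cytosolic gene stood at 307 and 192 CPM in wild-type replicates 1 and 2, and the median mitochondrial gene at 14.1 and 12.9 CPM, a ratio of 21.7 and 14.9. Per kb of coding sequence that ratio was 14.8 and 11.7. In each of the 6 libraries the lowest cytosolic gene lay above the highest mitochondrial one. The narrowest gap was in Ccr4/Pop2 degron replicate 2, between YNL247W (cytosolic cysteinyl enzyme) at 70.6 CPM and MSY1 at 54.2 CPM.

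**Figure D1:**
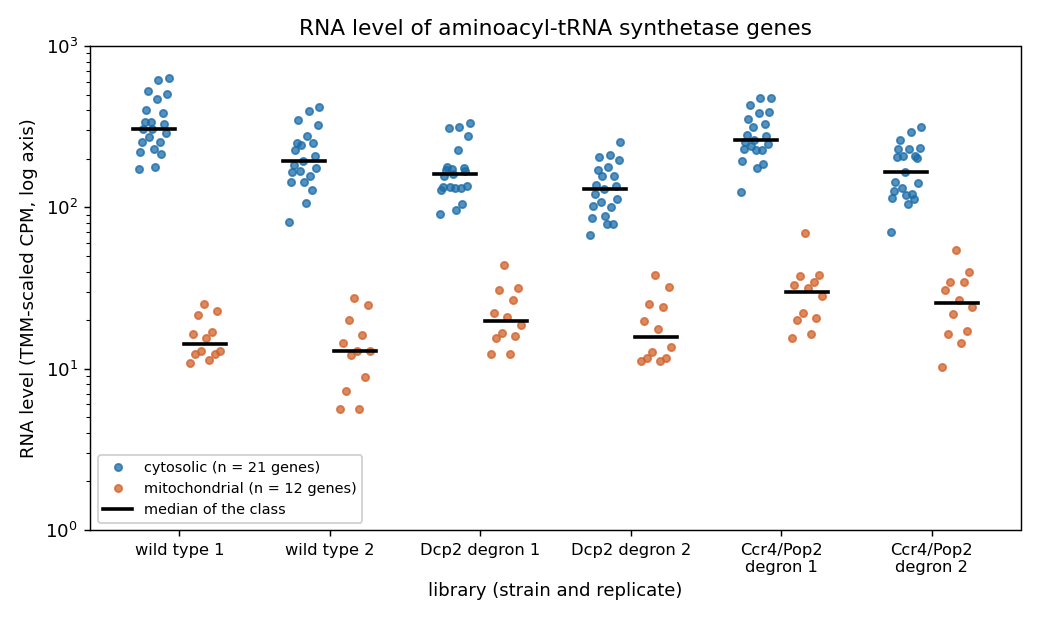
RNA level of each gene in each library, as TMM-scaled CPM on a log axis, with 1 point per gene and a bar at the class median. Cytosolic genes (21) lie above mitochondrial genes (12) in all 6 libraries, and the medians lie closer together in both degron strains (ratios of 6.54 to 8.71) than in the wild type (14.9 and 21.7).

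Among cytosolic genes, wild-type means ran from 126 ± 64.6 CPM for YNL247W to 523 ± 152 CPM (SD, n = 2) for THS1, the threonyl enzyme, a range of 4.14-fold. Next to THS1 came KRS1 (lysyl) at 469 ± 208 CPM, ARC1 at 451 ± 79.4 CPM and SES1 (seryl) at 436 ± 127 CPM. These 4 neighbours in the order differed by less than their SDs. Per kb the order changed: ARC1, the shortest of them, was highest with 398 CPM per kb, and its partners GUS1 and MES1 (methionyl) stood at 131 and 71.1 CPM per kb. FRS1 and FRS2, the subunits of the cytosolic phenylalanyl enzyme, stood close together per kb, at 111 and 101 in the wild type, 70.9 and 60.3 with the Dcp2 degron, and 99.0 and 95.6 with the Ccr4/Pop2 degron. ALA1, HTS1, VAS1 and GRS1 are known also to make a mitochondrial form, a list that may not be complete. Their wild-type means were 193 ± 39.0 CPM (ALA1, alanyl), 198 ± 78.0 CPM (HTS1, histidyl), 331 ± 74.1 CPM (VAS1, valyl) and 349 ± 172 CPM (GRS1, glycyl). These lay inside the cytosolic range and above every gene for mitochondria only.

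Mitochondrial genes ran from 8.99 ± 4.75 CPM for MSD1 to 25.1 ± 0.178 CPM (SD, n = 2) for MSK1, a range of 2.79-fold. After MSK1 came MSW1 at 21.9 ± 7.71 CPM and MSE1 (glutamyl) at 21.4 ± 1.78 CPM. Per kb the highest was MSW1 with 19.2 and the lowest ISM1 with 3.08, in CPM per kb. These values rest on few reads. In wild-type replicate 2, 8 of the 12 genes had fewer than 20 reads, down to 7 for NAM2 (leucyl) and MSD1. The cytosolic genes had between 100 and 4440 counts in every library. The table held no gene with fewer than 20 counts in replicate 1 of either degron strain, and ISM1 and NAM2 were at that minimum in Dcp2 degron replicate 1.

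The Dcp2 degron had lower levels than the wild type for the cytosolic synthetase genes, while most mitochondrial genes were not called. In the fit that used the replicate number as a block, all 21 cytosolic genes fell and 2 of 12 mitochondrial genes, MSW1 and MSD1, rose (edgeR quasi-likelihood test, adjusted p under 0.05). Of all 4909 genes, 19.7% fell and 17.6% rose in that fit, and the mitochondrial share of 2 in 12 is near the latter. Without the block edgeR called 0 members and 0 genes, and 4 members (VAS1, ALA1, WRS1 and GUS1, all cytosolic) had an unadjusted p under 0.05. The block is given because same-numbered libraries of different strains deviated together from their strain means (correlations of 0.80, 0.82 and 0.79 for the pairs of strains). Replicate 2 was lower than replicate 1 for 21, 18 and 21 of the 21 cytosolic genes in wild type, Dcp2 degron and Ccr4/Pop2 degron, with median log2 differences of -0.67, -0.44 and -0.82. The labels do not say what a replicate number shares.

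DED81, the asparaginyl enzyme, had the lowest fold of the cytosolic genes. It stood at 400 and 209 CPM in the wild type and 170 and 101 CPM with the Dcp2 degron. Both degron libraries lay below both wild-type ones, and the blocked edgeR fit gave a log2 change of -1.14 ± 0.15 (SE, adjusted p = 1.51e-05). THS1 stood at 630 and 415 against 331 and 197 CPM, again without overlap. Its blocked log2 change was -1.0 ± 0.12 (edgeR adjusted p = 6.42e-06). YDR341C, the arginyl enzyme, stood at 272 and 144 CPM in the wild type and 132 and 79.4 CPM with the Dcp2 degron.

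For YDR341C, too, both degron libraries lay below both wild-type libraries, with a blocked log2 change of -0.95 ± 0.15 (edgeR adjusted p = 9.42e-05). VAS1 was at 383 and 279 CPM against 174 and 171 CPM. Its groups were apart as well, with a blocked log2 change of -0.93 ± 0.14 (edgeR adjusted p = 3.16e-05). GRS1, at 470 and 227 against 227 and 135 CPM, fell by 0.91 ± 0.13 on the log2 scale in the blocked edgeR fit (adjusted p = 2.69e-05), although its groups touched. The smallest change of the class was that of MES1, at 214 and 107 against 133 and 88.0 CPM with a blocked log2 change of -0.50. In all, 17 of 21 cytosolic genes had both degron libraries below both wild-type libraries, a pattern seen in 20.4% of all genes.

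On the mitochondrial side, MSW1 stood at 16.5 and 27.4 CPM in the wild type and 31.5 and 37.9 CPM with the Dcp2 degron. Both degron values lay above both wild-type values, and the blocked log2 change was 0.70 ± 0.24 (edgeR adjusted p = 0.0272). MSD1 stood at 12.3 and 5.64 against 22.2 and 11.1 CPM. Its groups overlapped, and its blocked log2 change was 0.84 ± 0.33 (edgeR adjusted p = 0.0496). Groups were apart, with the degron higher, for 5 of 12 mitochondrial genes, against 21.8% of all genes. MSY1, in contrast, had 12.9 and 12.9 against 15.4 and 12.6 CPM, a log2 change of 0.12 that was not called.

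Over the classes, the median log2 change without the block was -0.84 for cytosolic genes (range -1.17 to -0.54) and 0.47 for mitochondrial genes (range 0.10 to 0.82), beside -0.02 for all genes. Every one of the 21 cytosolic values was negative and every one of the 12 mitochondrial values positive, and those signs were the same under total-count scaling. The mitochondrial signs may in part have been set by which genes the table listed, which was not tested. Its minimum of 20 counts in Dcp2 degron replicate 1 corresponds to 12.3 CPM. MSD1, NAM2, ISM1 and MSM1 had wild-type means below that, at 8.99, 9.25, 9.28 and 11.8 CPM. A gene of such a level could be listed only with that library at the minimum or above. Total-count scaling moved the median of all genes to 0.51 and the class medians to -0.36 and 0.98. Relative to all genes, the classes thus kept to either side, but in the blocked fit the split of calls went from 21 lower and 2 higher to 8 lower and 9 higher, all the lower ones cytosolic, where 6.11% and 50.7% of all genes were lower and higher. The blocked fit called fewer members without wild-type replicate 1, all of them lower. Without the block the cytosolic median was -0.44 without that library and -1.13 without wild-type replicate 2, and the mitochondrial median was 0.26 without wild-type replicate 2 or without Dcp2 degron replicate 1. In these bulk samples, fewer cells of a kind and less RNA per cell cannot be told apart.

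**Figure D2:**
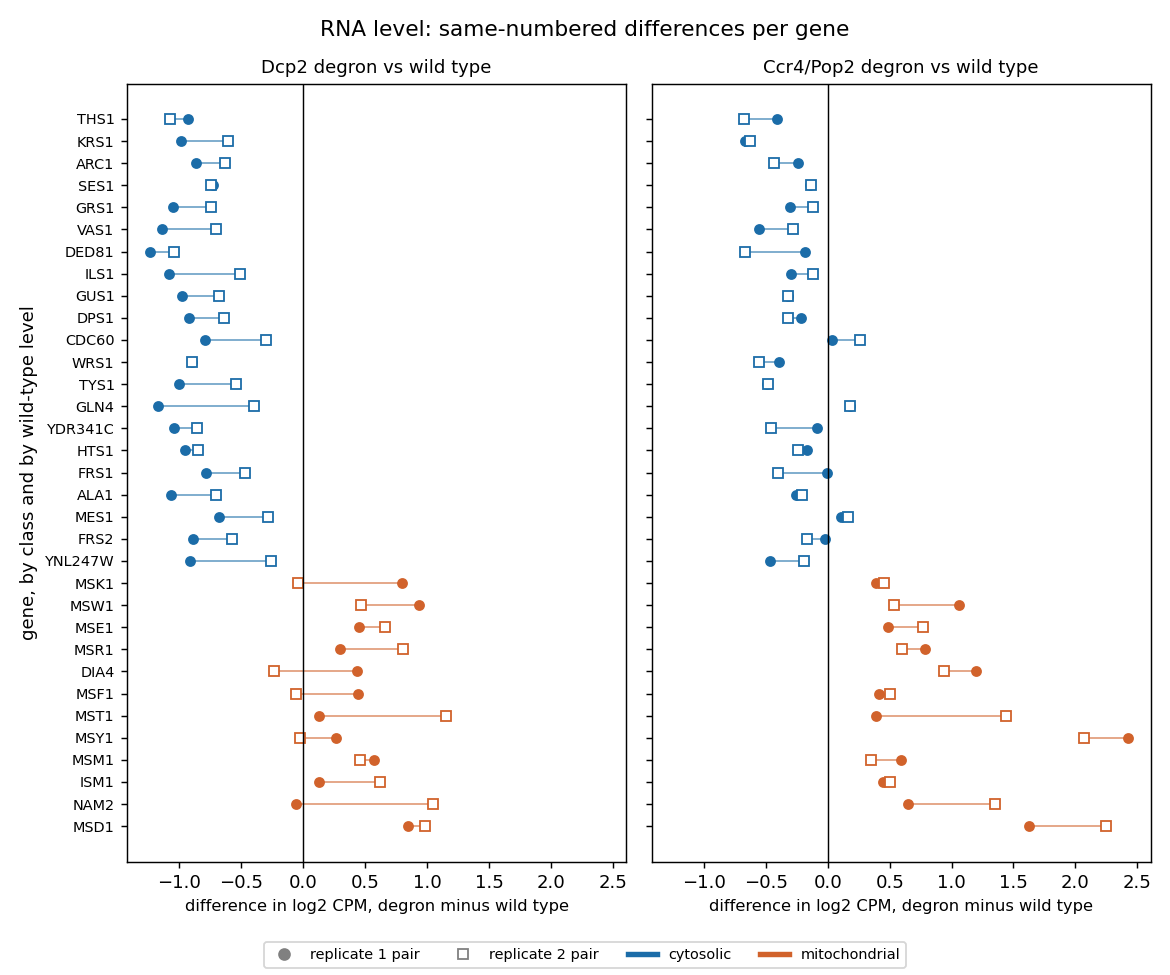
Difference in log2 CPM between each degron library and the wild-type library of the same replicate number, for 33 genes ordered by class and wild-type level, with circles for replicate 1, squares for replicate 2 and a line joining them. For the Dcp2 degron all 21 cytosolic genes are below 0 in both pairs, and for the Ccr4/Pop2 degron all 12 mitochondrial genes are above 0 in both pairs.

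The Ccr4/Pop2 degron had higher levels than the wild type for mitochondrial synthetase genes and mostly lower or similar ones for cytosolic genes. With the replicate block, 6 of the 12 rose (MSY1, MSD1, DIA4, MSW1, MSR1 and MSE1), and 5 of 21 cytosolic genes fell (KRS1, THS1, WRS1, TYS1 and VAS1), where 14.2% of all genes rose and 12.8% fell. Without the block edgeR called 0 members and 4 genes (0.0815%). By their ranges, 11 of 12 mitochondrial genes had both degron libraries above both wild-type libraries, against 16.5% of all genes. ISM1 was the exception, with 11.3 and 7.25 CPM in the wild type and 15.4 and 10.3 CPM in the degron.

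MSY1 showed the highest fold of all members, 4.75 from the mean log2 difference of same-numbered libraries. It stood at 12.9 and 12.9 CPM in the wild type and at 69.0 and 54.2 CPM with the Ccr4/Pop2 degron, from 25 and 16 reads against 644 and 79 counts. The groups were far apart, and the Dcp2 degron, at 15.4 and 12.6 CPM, lay with the wild type. The log2 change was 2.29 ± 0.22 with the block (edgeR adjusted p = 1.01e-06) and 2.26 ± 0.29 without it (edgeR adjusted p = 0.112).

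MSD1 stood at 12.3 and 5.64 CPM in the wild type and 38.1 and 26.7 CPM in the degron. Its groups were apart, with a blocked log2 change of 1.79 ± 0.27 (edgeR adjusted p = 0.000109). DIA4 stood at 12.3 and 16.1 against 28.3 and 30.8 CPM, also without overlap. Its blocked log2 change was 1.07 ± 0.25 (edgeR adjusted p = 0.00438). MSW1, at 16.5 and 27.4 against 34.3 and 39.8 CPM, had a blocked log2 change of 0.82 ± 0.22 (edgeR adjusted p = 0.00955). MSR1, the arginyl enzyme, was at 21.6 and 14.5 against 37.3 and 21.9 CPM, groups barely apart, with a blocked log2 change of 0.75 ± 0.24 (edgeR adjusted p = 0.0241). MSE1 followed with 0.59 ± 0.21 (edgeR adjusted p = 0.0483).

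Among cytosolic genes, KRS1 had the largest fall, from 617 and 322 CPM in the wild type to 387 and 208 CPM. These groups overlapped, because replicate 2 was lower in both strains, and the blocked log2 change was -0.65 ± 0.13 (edgeR adjusted p = 0.00109). The other falls were of THS1 (-0.53 ± 0.12), TYS1 (tyrosyl, -0.48 ± 0.14), WRS1 (tryptophanyl, -0.46 ± 0.13) and VAS1 (-0.43 ± 0.13), as blocked log2 change ± SE, with edgeR adjusted p between 0.00346 and 0.0186. Only 3 of 21 cytosolic genes had both degron libraries below both wild-type ones, against 15.6% of all genes. GLN4, CDC60 (leucyl) and MES1 had positive, uncalled log2 changes of 0.18, 0.13 and 0.13.

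Class medians of the log2 change without the block were -0.24 for cytosolic (range -0.65 to 0.18) and 0.75 for mitochondrial genes (range 0.42 to 2.26), with -0.01 for all genes. The count of 11 blocked calls was sensitive to single libraries. It fell when either wild-type library or Ccr4/Pop2 degron replicate 2 was left out, and rose when either Dcp2 degron library was. The Dcp2 degron libraries are not compared here, but they share in the spread, the replicate effect and the scaling of the fit. The cytosolic median was 0.16 without wild-type replicate 1, 0.10 without Ccr4/Pop2 degron replicate 2, -0.55 without wild-type replicate 2 and -0.62 without Ccr4/Pop2 degron replicate 1. The mitochondrial median was 0.47 without wild-type replicate 2.

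Set against each other, the degron strains gave calls mostly among cytosolic genes. With the block, 18 cytosolic genes and 3 mitochondrial genes (MSY1, MSD1 and DIA4) were higher with the Ccr4/Pop2 degron than with the Dcp2 degron and 0 were lower, while 26.3% of all genes were higher and 20.8% lower. GLN4 stood at 128 and 138 CPM with the Dcp2 degron and 326 and 206 CPM with the Ccr4/Pop2 degron, without overlap. Its blocked log2 change was 0.96 ± 0.16 (edgeR adjusted p = 0.000109), and that of MSY1 was 2.14 ± 0.22 (edgeR adjusted p = 6.13e-07). The median log2 change without the block was 0.59 for cytosolic, 0.24 for mitochondrial and 0.09 for all genes, and the cytosolic one was 0.21 without Ccr4/Pop2 degron replicate 1. Without the block edgeR called 0 members and 0 genes, with 3 members at an unadjusted p under 0.05, and DESeq2 called MSY1. The blocked count was 3 under total-count scaling, all higher, where 9.64% of all genes were higher and 41.1% lower. That scaling also turned the mitochondrial median to -0.16, with all genes at -0.31. The blocked count fell as well without Dcp2 degron replicate 1 or without Ccr4/Pop2 degron replicate 1.

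Genes for the same amino acid in both compartments can be set side by side in 13 pairs, in which MSF1, the single-chain mitochondrial phenylalanyl enzyme, is paired with both FRS1 and FRS2. The ratio of cytosolic to mitochondrial CPM had a median of 18.7 in the wild type (range 11.1 to 40.5), 7.77 with the Dcp2 degron (3.85 to 17.2) and 8.86 with the Ccr4/Pop2 degron (2.87 to 19.8), taken from the group means. It was lower than in the wild type for 13 of 13 pairs in each degron strain. For the Dcp2 degron, the minimum of 20 counts in replicate 1 bears on the pairs of ISM1, NAM2, MSD1 and MSM1. In the ratios given per library, both genes come from the same library, so library scaling does not enter those.

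The pair TYS1/MSY1 had a ratio of 26.3 and 12.2 in the wild-type libraries, 10.9 and 8.52 with the Dcp2 degron, and 3.49 and 2.08 with the Ccr4/Pop2 degron. No wild-type library overlapped a degron library. THS1/MST1 (threonyl) had ratios of 37.1 and 46.9, then 17.9 and 9.97, then 21.3 and 10.9. WRS1/MSW1 had ratios of 15.5 and 8.88, then 4.33 and 3.44, then 5.66 and 4.17. MES1/MSM1 was at 19.8 and 8.31 in the wild type, 8.31 and 4.97 with the Dcp2 degron, and 14.1 and 7.29 with the Ccr4/Pop2 degron, so that the wild type met the Dcp2 degron and overlapped the Ccr4/Pop2 degron.

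**Figure D3:**
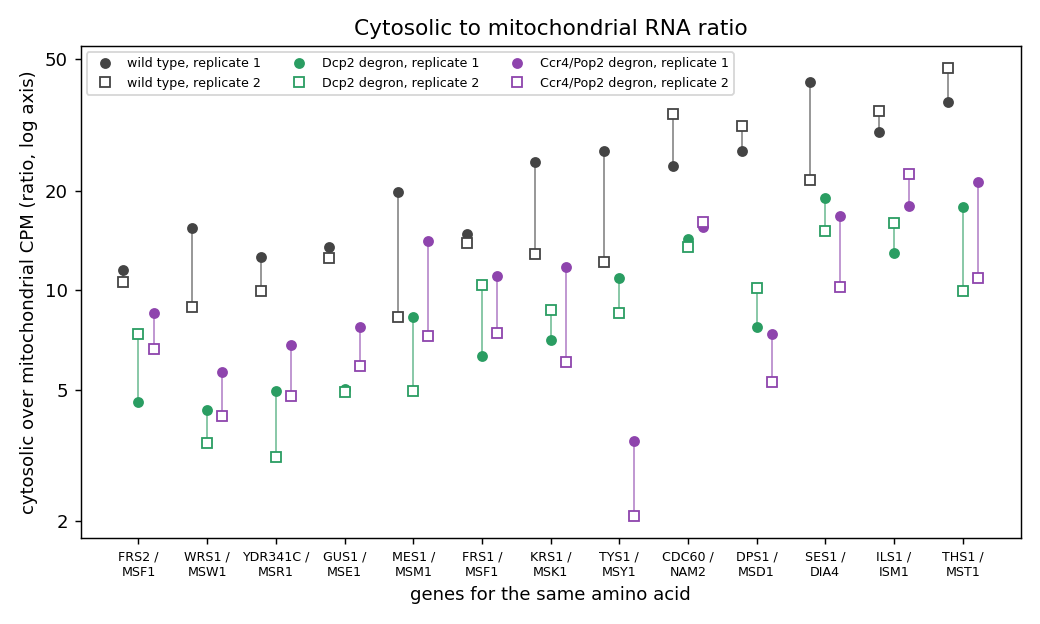
Ratio of cytosolic to mitochondrial CPM on a log axis for the 13 pairs of genes that serve the same amino acid, in each library, with circles for replicate 1 and squares for replicate 2. The wild-type medians over pairs lie at 23.8 and 12.9 and those of the degron libraries between 6.64 and 11.0, and TYS1/MSY1 is lowest with the Ccr4/Pop2 degron at 3.49 and 2.08.

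Tails were longer on mitochondrial than on cytosolic synthetase transcripts in every library by the class median, where a gene's tail length is the deposited median over its reads. In the wild type the cytosolic median was 33.5 and 37.3 nt and the mitochondrial one 44.4 and 49.3 nt, around 39.6 and 43.8 nt for all genes. The mitochondrial median exceeded the cytosolic by 10.9 and 12.0 nt in the wild type, 1.69 and 6.08 nt with the Dcp2 degron, and 16.8 and 13.2 nt with the Ccr4/Pop2 degron. In Ccr4/Pop2 degron libraries 12 of 12 mitochondrial genes had a tail longer than the longest cytosolic one. That number was 10 and 8 in the wild type and 3 and 7 with the Dcp2 degron. The median over all genes also passed the longest cytosolic tail with the Ccr4/Pop2 degron (51.9 and 52.4 against 45.4 and 48.1 nt). It did so in wild-type replicate 1 too (39.6 against 36.6 nt), but not in the other libraries. Such a count is therefore not particular to mitochondrial genes, and the share of all genes beyond that tail was not computed. A median over few reads is imprecise, and 8 of the 12 mitochondrial genes had fewer than 20 reads in a library. The read number and the class go together here, and the part of read number in the tail difference was not tested. Mitochondrial genes had 21 reads or more in wild-type replicate 1 and 144 counts or more, all multiples of 4, in Ccr4/Pop2 degron replicate 1. Every cytosolic gene had more there too, the fewest being 334 and 1164 for YNL247W. These libraries therefore do not separate class from read number.

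**Figure D4:**
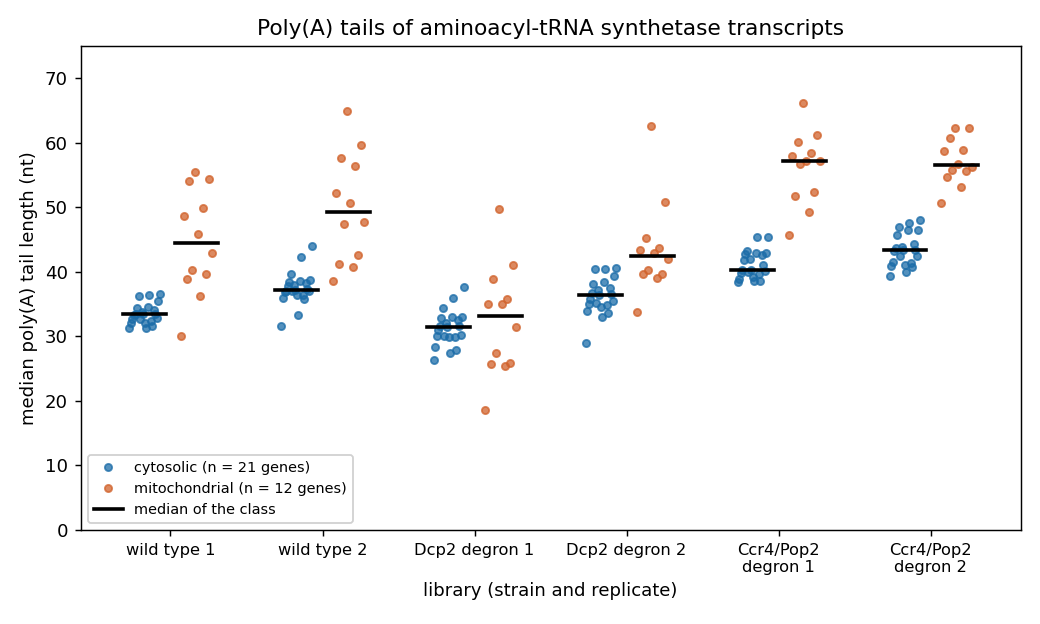
Median poly(A) tail length in nt of each gene in each library, with 1 point per gene and a bar at the class median. Mitochondrial genes (12) lie above cytosolic genes (21) most clearly with the Ccr4/Pop2 degron, at medians of 57.1 and 56.5 nt against 40.4 and 43.3 nt, and the classes overlap most in Dcp2 degron replicate 1, at 33.2 and 31.5 nt.

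Cytosolic tails were narrowly spread, with wild-type means from 31.8 nt for GRS1 to 40.2 nt for GLN4. Mitochondrial means ran from 38.5 nt for MSE1 to 57.4 nt for MSM1, the methionyl enzyme. MSK1, with 31 or more reads in each library, had the longest tail among the well-read mitochondrial genes, at 54.1 and 57.6 nt in the wild type, 49.7 and 62.6 nt with the Dcp2 degron, and 66.1 and 62.2 nt with the Ccr4/Pop2 degron. Its cytosolic partner KRS1 had tails of 33.5 and 38.7, 30.0 and 35.8, and 41.8 and 42.4 nt. Over the 13 pairs the mitochondrial tail was the longer in 13 in the wild type, 9 with the Dcp2 degron and 13 with the Ccr4/Pop2 degron, by medians of 13.5, 1.91 and 15.0 nt, taken from group means. The Dcp2 degron libraries went opposite ways, with the mitochondrial tail longer in 5 pairs and a median of -1.84 nt in replicate 1, and in 12 pairs with 6.18 nt in replicate 2. Across the 33 genes, level and tail had a Spearman correlation of -0.73 in the wild type, -0.32 with the Dcp2 degron and -0.76 with the Ccr4/Pop2 degron, over group means that share libraries and depth. Within cytosolic genes it was -0.17, -0.35 and -0.22, and within mitochondrial genes -0.02, 0.82 and -0.22.

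Tests of tail length covered the 25 members with at least 20 reads in every library, 21 cytosolic ones and MSK1, MSW1, MSE1 and DIA4. Against the wild type, limma called 0 members and 0 of 3949 genes with the Dcp2 degron, with 0 members and 793 genes at an unadjusted p under 0.05. The median log2 change was -0.09 for cytosolic genes, -0.03 for the 4 mitochondrial genes and -0.22 for all genes tested. Both degron libraries lay below both wild-type ones for 3 of the 21 cytosolic genes and 0 of these 4 mitochondrial genes, against 44.9% of all genes tested. They lay above both for 0 of the 25, against 1.67%. The largest differences were uncalled, with limma log2 changes of -0.43 ± 0.25 for DIA4, -0.21 ± 0.13 for ALA1, -0.16 ± 0.17 for THS1 and -0.14 ± 0.14 for KRS1 (adjusted p between 0.335 and 0.556). MSE1 and MSW1 had -0.03 each. DIA4 had tails of 39.6 and 50.7 nt in the wild type and 25.8 and 43.0 nt with the degron, so its groups overlapped. The cytosolic median was 0.04 without Dcp2 degron replicate 1. Over all 12 mitochondrial genes, with no minimum of reads, the median was -0.36, beside -0.23 for all 4909 genes. Both degron libraries then lay below both wild-type ones for 4 of the 12, against 45.9% of all genes.

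In the Ccr4/Pop2 degron all 25 tested members had both libraries above both wild-type libraries, as did 90% of all genes tested. The adjusted p nevertheless missed the threshold for every member and gene, so limma called 0 of 25, with 2 members and 1136 genes at an unadjusted p under 0.05. MSE1 had the largest difference of the 25, with tails of 36.2 and 40.8 nt in the wild type and 57.2 and 55.7 nt in the degron. Its log2 change was 0.55 ± 0.13 (limma adjusted p = 0.165), beside a class median of 0.33 over the 4 mitochondrial genes, 0.24 over cytosolic genes and 0.30 over all genes. Among mitochondrial genes DIA4 was next, with tails of 39.6 and 50.7 against 57.1 and 56.3 nt and a log2 change of 0.34 ± 0.25 (limma adjusted p = 0.293), and MSW1 had 0.33 ± 0.12 (limma adjusted p = 0.17). The cytosolic genes with the largest differences were WRS1 (0.35 ± 0.16), TYS1 (0.32 ± 0.14) and THS1 (0.32 ± 0.17), as log2 change ± SE, none called by limma. Fitted on these 2 strains alone, limma called 10 of 25 members longer, where 59.1% of all genes were called. Leaving out a single Dcp2 degron library gives the same result by construction, because a group of 1 library adds no spread. Over all 12 mitochondrial genes, with no minimum of reads, the median log2 change was 0.289, beside 0.295 for all 4909 genes. Both degron libraries then lay above both wild-type ones for 8 of the 12 (66.7%), against 86.4% of all genes.

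**Figure D5:**
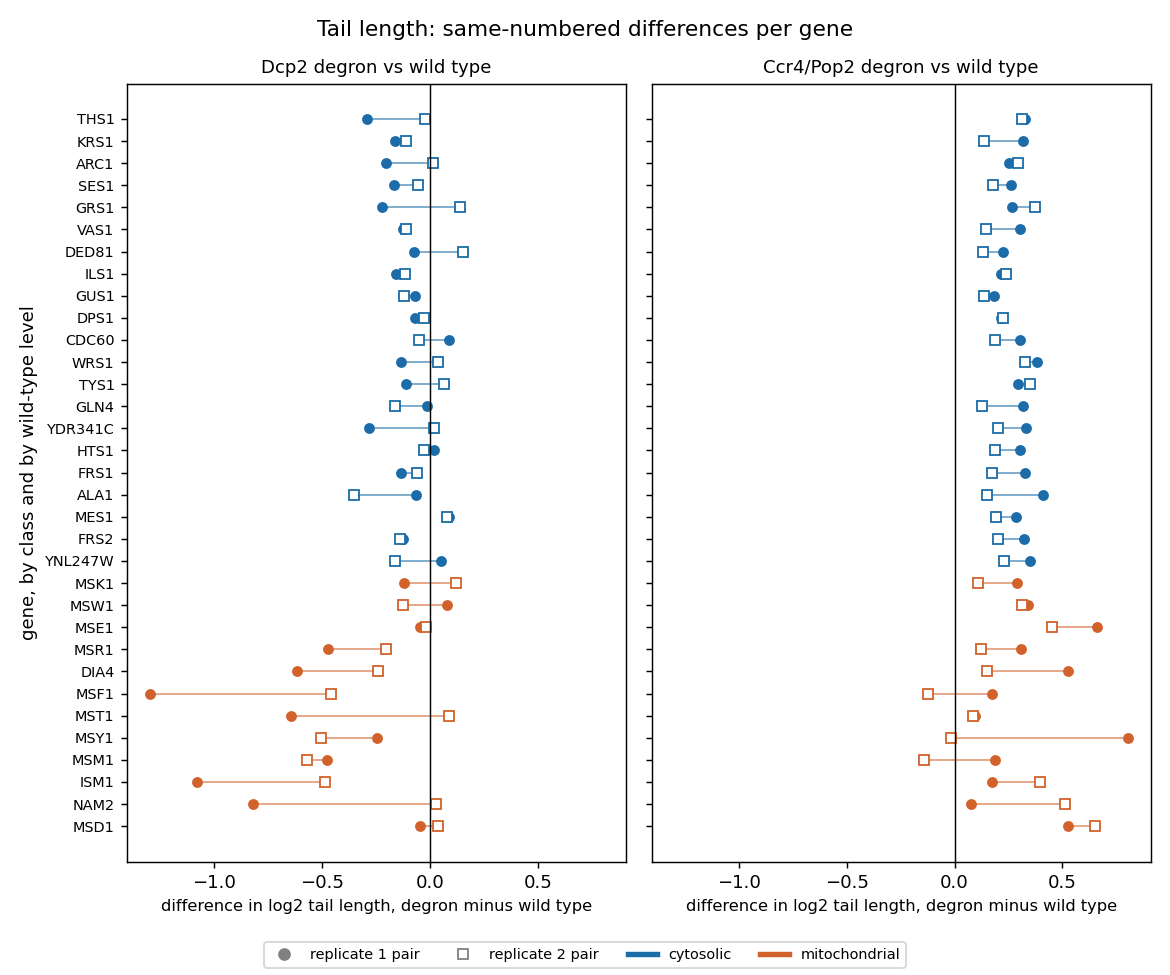
Difference in log2 tail length between each degron library and the wild-type library of the same replicate number, for 33 genes ordered by class and wild-type level, with circles for replicate 1 and squares for replicate 2. All 21 cytosolic genes lie above 0 in both pairs for the Ccr4/Pop2 degron, and the mitochondrial genes spread more widely, the less abundant of them most.

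Between the degron strains, 8 of 25 members had longer tails with the Ccr4/Pop2 degron by limma (ILS1, ARC1, FRS2, THS1 and ALA1 among cytosolic and MSW1, MSE1 and DIA4 among mitochondrial genes), beside 69.6% of all genes tested. With the replicate block limma called 19 of 25, beside 83.9% of genes, and 23 of 25 had both Ccr4/Pop2 libraries above both Dcp2 libraries, beside 95.7% of genes. MSE1 had tails of 35.1 and 40.3 nt with the Dcp2 degron and 57.2 and 55.7 nt with the Ccr4/Pop2 degron, a log2 change of 0.59 ± 0.13 (limma adjusted p = 0.0157). ALA1 had 30.3 and 29.0 against 42.0 and 41.0 nt, a log2 change of 0.49 ± 0.13 (limma adjusted p = 0.0202). DIA4 had 25.8 and 43.0 against 57.1 and 56.3 nt, with a wide gap between its Dcp2 degron libraries, and a log2 change of 0.77 ± 0.25 (limma adjusted p = 0.0324). The medians were 0.34 for cytosolic, 0.47 for the 4 mitochondrial and 0.53 for all genes tested. The count of 8 members fell without either Ccr4/Pop2 degron library, either wild-type library or Dcp2 degron replicate 1. It rose without Dcp2 degron replicate 2. The number of all genes called moved the same way each time. Fitted on these 2 strains alone, limma called 3 of 25 members longer, where 54.1% of all genes were called. When each library was centred on its median tail, 0 members and 0 of all genes tested were called.

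Genes around the synthetases in the same pathway gave calls in both directions. Of 6 listed genes for aminoacylation outside the member list, GTF1 (a subunit of the amidotransferase that makes mitochondrial glutaminyl-tRNA) rose and YHR020W (cytosolic prolyl enzyme) fell with the Dcp2 degron with the block, by log2 changes of 0.57 ± 0.21 and -0.76 ± 0.18 (edgeR adjusted p = 0.0458 and 0.00227). PET112, another subunit of that amidotransferase, rose with the Ccr4/Pop2 degron, from 10.3 and 9.66 to 27.9 and 25.4 CPM, with a blocked log2 change of 1.43 ± 0.27 (edgeR adjusted p = 0.000807). These counts, 1 of 6 each, are near the shares of all genes. Those were 17.6% higher and 19.7% lower with the Dcp2 degron and 14.2% higher with the Ccr4/Pop2 degron. YHR020W and DED81 lie back to back on chromosome VIII, 437 nt apart.

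Of 13 genes for tRNA maturation and export, 2 rose and 2 fell with the Dcp2 degron, and 2 rose and 1 fell with the Ccr4/Pop2 degron (edgeR with the block). These shares are near or below those of all genes, 17.6% and 19.7% for the Dcp2 degron and 14.2% and 12.8% for the Ccr4/Pop2 degron. CCA1, which adds the CCA end of tRNA, stood at 40.1 and 41.9 CPM in the wild type, 80.9 and 59.1 CPM with the Dcp2 degron and 77.6 and 69.9 CPM with the Ccr4/Pop2 degron, and rose in both. LHP1, the yeast La protein that binds new tRNA transcripts, stood at 367 and 388, 207 and 214, and 237 and 243 CPM, and fell in both. SEN2 rose and POP1 fell with the Dcp2 degron, and SEN15 rose with the Ccr4/Pop2 degron.

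Of 4 genes of the response to uncharged tRNA (GCN1, GCN2, GCN20 and GCN4), GCN4 and GCN1 fell with the Dcp2 degron, and GCN4 fell with the Ccr4/Pop2 degron (edgeR with the block). Of all genes, 19.7% and 12.8% fell in those fits. Without the block 0 of the 4 were called in either comparison. GCN4, the transcription factor that acts on amino acid synthesis genes, stood at 597 and 413 CPM in the wild type, 443 and 349 with the Dcp2 degron, and 361 and 262 with the Ccr4/Pop2 degron, with blocked log2 changes of -0.34 ± 0.12 and -0.69 ± 0.12 (edgeR adjusted p = 0.0314 and 0.000353). Its core element TGACTCA, on either strand within 500 nt upstream of the start codon, was found in 2 of 21 cytosolic genes, DED81 and YDR341C, in 0 of 12 mitochondrial genes and in 4.05% of all listed genes. These matches were searched as letters in R64, and no binding was measured.
DED81, chrVIII:143803-143829, - strand, 261 nt upstream: agacattcagTGACTCAagcatcgctt
YDR341C, chrIV:1153811-1153837, - strand, 201 nt upstream, element on the other strand: aagtgtctaaTGAGTCAgttatttctt

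YDR341C has HXT7, a hexose transporter gene, as a neighbour 589 nt upstream on the same strand. HXT7 stood at 40.1 and 31.4 CPM in the wild type and 733 and 583 CPM with the Ccr4/Pop2 degron, a blocked log2 change of 4.19 ± 0.16 (edgeR adjusted p = 2.92e-12). YDR341C stood at 272 and 144 against 255 and 105 CPM in the same libraries, a blocked log2 change of -0.22 ± 0.14 that was not called (edgeR adjusted p = 0.274).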

How the data were processed

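The deposited table gives, per the file headers, a read count per gene and library, not normalized, and a median taken here as the poly(A) tail length in nt of the gene's reads, because the table is named for nanopolish. The submitters' processing notes name minimap2, SAMtools 1.9 and sacCer3, with no role; basecaller, counting rule and use of strand are not given in the sources used here. Columns were matched to libraries by strain and number, the unnumbered column of a strain being replicate 1 by elimination; 0 columns of per-sample values matched no sample. The labels do not say that replicates were separate cultures, so p-values measure only the spread between these libraries.

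Levels were tested in R 4.3.3 with edgeR 4.0.16 (TMM scaling; glmQLFit with glmQLFTest; filterByExpr left out 0 genes) on the counts of all 6 libraries, without a block. Same-numbered libraries deviated together (correlations of 0.80, 0.82 and 0.79 for level), so the fit with the replicate number as a block is printed beside it. Log2 tail lengths were tested with limma 3.58.1 for 3949 genes whose lowest library held 20 reads or more. P-values were adjusted (Benjamini-Hochberg) over all genes tested and called under 0.05. A degron strain and the wild type, or both degron strains, were compared, and all comparisons share libraries. CPM values have no pseudocount. Scripts were tested on simulated data. Per kb values divide by the RefSeq R64 coding length; no member overlaps another gene there, and 0 members shared all 6 counts with another gene. A count floor of 3 corresponds to 0.355 to 2.81 CPM before TMM scaling, for counting error only.

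Alternatives were total-count scaling, DESeq2 1.42.0 and its size factors, read minimums, fits of 2 groups, Ccr4/Pop2 degron replicate 1 counts divided by 4, centred tails, and each library left out. Full statistics went to called members, at most the 5 of each class and direction with the largest change, or, with fewer than 3 called, to those with the largest differences. The members and lists were chosen with earlier results of these data known.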

Additional observations from a re-analysis of the deposited data

How the results depend on the processing

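Without the replicate block edgeR called 0 members for level in all 3 comparisons, with any single library left out too; DESeq2 called 1 (MSY1) in each comparison of the Ccr4/Pop2 degron. The replicate block, that is pairing by replicate number, called 23 (Dcp2 degron against wild type), 11 (Ccr4/Pop2 degron against wild type) and 21 (between degrons). Leaving out single libraries gave blocked counts of 13 to 23, 3 to 17 (3 and 7 without wild-type replicates 1 and 2, 6 without Ccr4/Pop2 degron replicate 2) and 12 to 23, and total-count scaling gave 3 between degrons. The block was planned; combining it with other settings was chosen after seeing the data. Dividing Ccr4/Pop2 degron replicate 1 counts by 4 left 23, 10 and 21 blocked calls.

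Median log2 level changes under total-count scaling were -0.36 (cytosolic) and 0.98 (mitochondrial) for the Dcp2 degron, and 0.19 and -0.16 between degrons; for genes whose lowest library held 20 reads the last was -0.00105. Leaving out single libraries, the cytosolic median ran from -1.13 to -0.44 (Dcp2 degron), -0.62 to 0.16 (Ccr4/Pop2 degron) and 0.21 to 0.84 (between degrons), and the mitochondrial median ran from 0.26 to 0.55 (Dcp2 degron) and from 0.47 to 0.85 (Ccr4/Pop2 degron). Single genes changed sign when 1 library was left out. Between degrons, DED81 ran from -0.040 to 1.37, DPS1 from -0.015 to 0.97, THS1 from -0.018 to 0.90 and YDR341C from -0.0063 to 1.27. MES1 (Dcp2 degron) ran from -0.97 to 0.052 and TYS1 (Ccr4/Pop2 degron) from -1.14 to 0.16.

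For tails, same-numbered libraries deviated together less (correlations of 0.26, 0.15 and 0.055), and the replicate block gave 0, 0 and 19 calls. Between degrons, no read minimum gave 13 calls, 2 groups 3, the block with 2 groups 4 and the block with no minimum 25. Centring gave 0, as it did among all genes tested. Leaving out single libraries moved the count both ways. For the Ccr4/Pop2 degron against wild type, 2 groups gave 10, the block with 2 groups 19 and libraries left out 0 to 10; for the Dcp2 degron libraries left out gave 0 to 3. Median log2 tail changes after centring each library on its median were 0.12 and 0.19 (Dcp2 degron, cytosolic and mitochondrial), -0.088 and -0.000293 (Ccr4/Pop2 degron), and -0.20 and -0.080 (between degrons). With no read minimum the mitochondrial medians were -0.36 (Dcp2 degron) and 0.59 (between degrons), with or without the block. Those of all genes, without the block, were -0.23 and 0.53. Leaving out single libraries, the mitochondrial medians of the main fit ran from -0.15 to 0.043 (Dcp2 degron) and 0.21 to 0.46 (Ccr4/Pop2 degron), and the cytosolic ones from -0.18 to 0.040 (Dcp2 degron) and 0.23 to 0.46 (between degrons). Centring takes the same amount off every gene's change, so any gene that changed less than the median gene turns negative. Between degrons, the genes recomputed that did so had centred log2 changes of ILS1 -0.19, GRS1 -0.19, SES1 -0.22, KRS1 -0.19, MSW1 -0.20, YDR341C -0.15, FRS2 -0.16, ARC1 -0.18, VAS1 -0.21, TYS1 -0.20, THS1 -0.071, DPS1 -0.28, FRS1 -0.20, YNL247W -0.21, WRS1 -0.15, GLN4 -0.24, ALA1 -0.0621. These tails were longer in nt but not relative to the median gene. With tails in nt, only counts of calls were recomputed. For other settings the cause was not tested. Few reads limit the mitochondrial tails.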
